A study of Mus musculus with 13 samples.

Results

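The sites described here are glucocorticoid receptor (GR) sites of mouse liver that were called with and without dexamethasone, in control and in corepressor-knockout liver, and that carried no called peak of the nuclear receptor corepressor NCOR1. They were chosen by presence and absence in the deposited peak lists: each is a peak of the control dexamethasone GR list that overlapped a peak in each of the other 3 GR lists by at least 1 bp and overlapped no peak in any of the 3 NCOR1 lists. Of 40853 peaks in the control dexamethasone GR list, 16144 (39.5%) were in all 4 GR lists, and 8145 of these had no NCOR1 peak. The 8145 sites are 19.9% of the list and 50.5% of the sites called in all 4 GR lists. Since the lists fixed this membership, presence and absence are not results here. For comparison, 5749 sites called in all 4 GR lists overlapped NCOR1 in control liver and not in the knockout, and they are called sites with hepatocyte NCOR1 below. That name is only a label for this overlap. It does not show that the NCOR1 was in hepatocytes, since the cells in which Cre acted are not given. The knockout NCOR1 list also rests on 1 library. A further 2250 overlapped a peak of the knockout NCOR1 list, and 16277 GR peaks were called in the control dexamethasone list but not in the control vehicle list.

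GR is a nuclear receptor that moves to the nucleus when it binds cortisol, corticosterone or a synthetic agonist such as dexamethasone. It binds DNA directly at the glucocorticoid response element, a palindrome of a pair of 6-base sequences set 3 bases apart, or is held at chromatin by other proteins. In liver it switches on genes of gluconeogenesis and amino acid breakdown during fasting and stress. NCOR1 carries the histone deacetylase HDAC3 to nuclear receptors and is best known as a corepressor.

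The livers came from male mice of 2 kinds, labelled GFP (control) and CRE (dKO, a knockout that includes NCOR1 per the series text). Each kind received an intraperitoneal injection of vehicle (saline) or of 1 mg/kg dexamethasone at zeitgeber time 8, and liver was frozen 2 h later at zeitgeber time 10. The GR lists each pool 2 libraries, which were not size selected; the NCOR1 lists pool 1 library for control vehicle, 2 for control dexamethasone and 1 for dKO vehicle, and these and the single input were size selected. No NCOR1 list of dKO liver under dexamethasone was used, the ages of the animals are not given in the sources used here, and neither is the cell type in which Cre acted. In whole liver, fewer cells with a site and less receptor at the site in each cell cannot be told apart. Because peaks were called on pooled libraries, no list holds a value per animal: there is no replicate error and no test, and the 95% Clopper-Pearson intervals given here cover counting error only.

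The lists rested on 27.5 to 31.9 M tags (M for mega) for GR and 17.5 to 36.9 M for NCOR1. The share of tags that fell in GR peaks was 5.0% under vehicle and 7.23% under dexamethasone in control liver, and 3.40% and 4.11% in dKO liver. As a check of the knockout, the NCOR1 list held 39458 peaks in control vehicle liver and 17282 in dKO vehicle liver, at depths of 17.8 and 17.5 M tags. The hepatocyte genes Alb, Ttr and Hnf4a were the nearest gene, within 100 kb, of 8, 4 and 5 control dexamethasone GR peaks, whereas Apoa1 was of none. By the same count a list of 24 hepatocyte identity genes had 132 peaks and a list of 16 neuronal genes had 24. The neuronal gene Rbfox3 alone had 6, so such counts are not a check of the tissue.

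The sequences of 6 promoter sites are given first, because base content differed between the sites with more and the sites with fewer tags under dexamethasone. Each is the stretch of a 200-bp site that lies in the RefSeq promoter window (250 bases before to 50 after a gene's start, GRCm38.p6), read 5′ to 3′ on the gene's strand. They come from the 10 promoter sites with the highest control dexamethasone tag counts. Capitals mark the GR hexamer AGAACA or its complement TGTTCT, and the GC-rich sequence GGGCGG or its complement CCGCCC. In the first pair, at C1qc, which encodes a chain of complement component C1q, and at Gm29861, a predicted gene inside the metalloprotease gene Adamts14, tag counts were higher under dexamethasone.
C1qc: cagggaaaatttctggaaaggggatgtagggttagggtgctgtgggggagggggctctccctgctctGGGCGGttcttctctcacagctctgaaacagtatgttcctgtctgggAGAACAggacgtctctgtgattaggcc
Gm29861: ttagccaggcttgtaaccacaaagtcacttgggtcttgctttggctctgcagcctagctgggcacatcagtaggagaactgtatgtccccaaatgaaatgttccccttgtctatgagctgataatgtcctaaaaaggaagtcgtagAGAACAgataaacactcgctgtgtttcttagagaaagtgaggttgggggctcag
In the next 4, at Map10 (a microtubule-associated protein), Sipa1l2 (a signal-induced proliferation-associated family member), Trank1 and Msantd3, tag counts were lower under dexamethasone.
Map10: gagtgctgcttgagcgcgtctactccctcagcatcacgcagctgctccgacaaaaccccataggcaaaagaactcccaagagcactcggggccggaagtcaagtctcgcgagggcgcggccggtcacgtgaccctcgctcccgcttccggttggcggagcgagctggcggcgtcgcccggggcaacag
Sipa1l2: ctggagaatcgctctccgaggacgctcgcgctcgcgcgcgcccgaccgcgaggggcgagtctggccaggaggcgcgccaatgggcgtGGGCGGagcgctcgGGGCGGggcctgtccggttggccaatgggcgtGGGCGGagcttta
Trank1: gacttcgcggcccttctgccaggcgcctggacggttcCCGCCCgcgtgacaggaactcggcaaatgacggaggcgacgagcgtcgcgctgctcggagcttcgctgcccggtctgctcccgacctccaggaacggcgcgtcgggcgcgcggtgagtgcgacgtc
Msantd3: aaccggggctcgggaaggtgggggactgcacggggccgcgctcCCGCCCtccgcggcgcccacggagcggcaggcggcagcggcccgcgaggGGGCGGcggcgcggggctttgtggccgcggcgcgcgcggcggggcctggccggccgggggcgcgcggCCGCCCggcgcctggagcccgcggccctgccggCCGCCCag
In mm10 coordinates these stretches are chr4:136892865-136893005 (minus strand), chr10:61216283-61216482 (plus), chr8:125669680-125669867 (plus), chr8:125569968-125570113 (minus), chr9:111311626-111311788 (plus) and chr4:48540288-48540487 (plus). The C1qc stretch holds 1 hexamer and 1 GGGCGG, and the Gm29861 stretch holds 1 hexamer. The pair does not stand for all promoter sites with more tags under dexamethasone: of the 10, Qprt, Hpn and Gm52385 also had more in both genotypes and hold no hexamer, with GC contents of 62.4%, 53.5% and 31.4%. The remaining site of the 10, at Serpina3c, holds 1 hexamer and had control and dKO drug ratios of 1.05 and 0.777. The 4 other printed stretches hold no hexamer, and GGGCGG occurs 0 times at Map10, 3 times at Sipa1l2, once at Trank1 and 4 times at Msantd3. Their GC content runs from 66.5% at Map10 to 87.5% at Msantd3, with 21 to 38 CG dinucleotides each, against 46.5% and 55.3% GC and 2 CG dinucleotides each in the first pair. The C1qc site held 12.2 tags (scaled counts, explained below) under vehicle and 48 under dexamethasone in control liver, and 5.30 and 26.5 in dKO liver. The Msantd3 site held 39.5 and 27.6, and 48.5 and 24. The 2 treatments did not overlap at either site, and they lay in opposite order.

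The name constant applies to the calls and not to the tag counts. The tag count of a site is the number of sequenced ChIP fragments in it, scaled by the authors to 10 M tags per list. The median site without NCOR1 held 17.5 tags under vehicle and 12.5 under dexamethasone in control liver, and 17.3 and 10.7 in dKO liver. The sites with hepatocyte NCOR1 had medians of 17.1, 24.3, 11.4 and 15 in the same order. The 2 classes thus started from about the same vehicle level in control liver and lay on opposite sides of it under dexamethasone. The middle 90% of the sites without NCOR1 ran from 7.16 to 30.6 tags in the control dexamethasone list, and the highest reached 292.

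Under dexamethasone most sites without NCOR1 held fewer GR tags than under vehicle. The median ratio of dexamethasone to vehicle was 0.711 in control liver and 0.610 in dKO liver, against 1.38 and 1.32 at sites with hepatocyte NCOR1. In control liver 3240 of the 8145 sites (39.8%, interval 38.7 to 40.9%) were lower by at least 1.5-fold, beside 15.9% of all 24576 control dexamethasone peaks that were shared with the vehicle list. In the other direction 537 (6.59%, 6.06 to 7.15%) were higher by at least 1.5-fold, beside 25.1% of all shared peaks. This share was 2.98% among sites at 8-fold over local background and 14.3% among sites of at least 20 tags in either control list. The latter cut was chosen after seeing the data. A site could pass it through the treatment where it was high, which favours large ratios in both directions. At sites with hepatocyte NCOR1 the shares were 2.71% lower and 41.4% higher. In dKO liver 5292 sites without NCOR1 (65.0%) were lower, beside 32.5% of 17309 shared peaks, and 482 (5.92%) were higher, beside 20.0%. Fewer tags under dexamethasone in both genotypes was the pattern of 7013 sites without NCOR1 (86.1%) and of 9.06% of those with hepatocyte NCOR1. The rule used these 4 lists, so the shares describe the class and support nothing further.

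**Figure D1:**
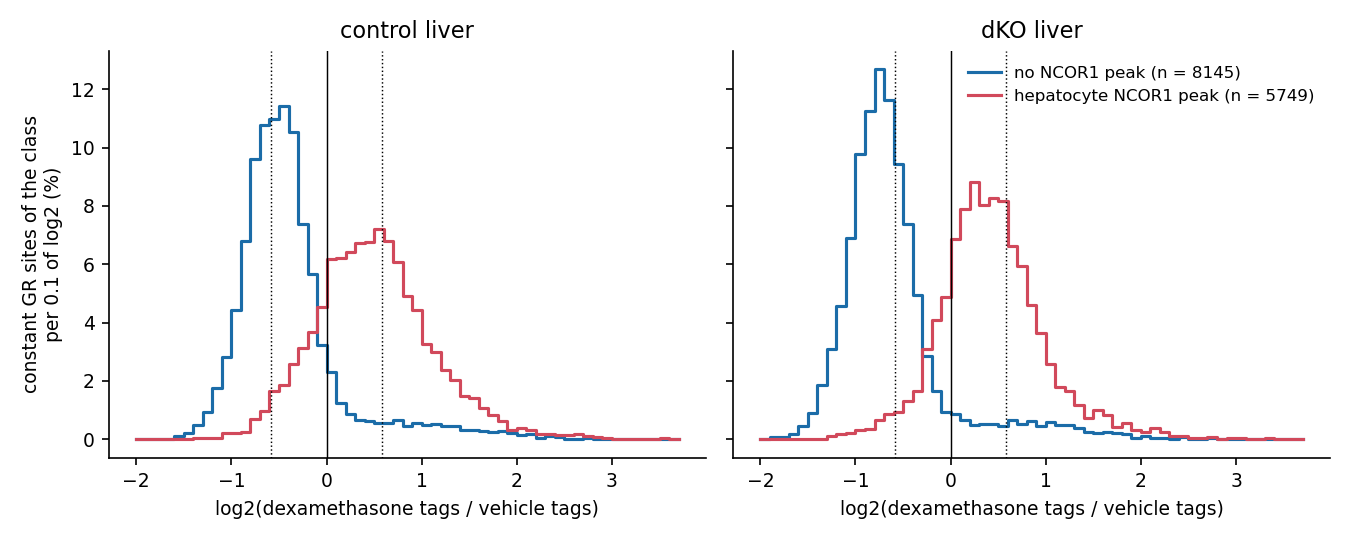
Distribution of the log2 ratio of dexamethasone to vehicle tags (x axis) in control (left) and dKO liver (right), as the percentage of each class per 0.1 of log2 (y axis), for the 8145 constant GR sites with no NCOR1 peak (blue) and the 5749 with hepatocyte NCOR1 (red); dotted lines mark 1.5-fold. The blue peak lies to the left of 0 (median −0.49 in control, −0.71 in dKO) with a long flat tail to the right, and the red medians are 0.46 and 0.40.

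The sites were then followed from control to dKO liver. Of the 537 sites that were higher in control liver, 407 (75.8%) were also at least 1.5-fold higher in dKO liver, beside 5.92% of all 8145 sites, 128 lay between the limits and 2 were lower. Of the 3240 that were lower in control liver, 2336 (72.1%) were also lower in dKO liver, 904 lay between and 0 were higher. That share was near the 65.0% of all 8145 and the 67.6% (2954 of 4368) of the sites between the limits in control liver. Over the 8145 sites the control and dKO drug ratios had a Spearman rho of 0.25, beside 0.58 over the sites with hepatocyte NCOR1, which describes sites that share the same 4 lists and their depths. A typical single site is thinly covered: the median control ratio rests on 38 tags against 48, which gives an exact binomial interval of 0.46 to 1.13. Taken one at a time, 2665 sites (32.7%) had a control ratio whose counting interval lay below 1, 537 (6.59%) had one above 1, of which 497 were among the sites at least 1.5-fold higher, and 4943 (60.7%) had one that held 1.

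When the 16144 GR sites called in all 4 lists were put in 10 equal classes by the control drug ratio, the share without NCOR1 was lower at higher ratios, except at the upper end. It was 93.8% in the lowest class (median ratio 0.526), 66.2% in the fifth (0.860), 8.36% in the eighth (1.45) and 20.6% (18.7 to 22.7%) in the highest (2.60). Against the control dexamethasone tag count itself, in 5 equal classes, the share without NCOR1 was 73.4%, 76.4%, 64.4%, 25.2% and 12.8% from the lowest to the highest. Against the control vehicle tag count it was 31.5%, 55.7%, 67.4%, 67.0% and 30.8%, highest in the middle classes and low at both ends. The ratio was also read within 5 classes of control dexamethasone tag count over all peaks. That count is the numerator of the ratio, so the classes do not make the ratio independent of it. In the lower 4 classes the median control ratio was 0.595 to 0.770 without NCOR1 and 0.828 to 1.26 with hepatocyte NCOR1. In the class of strongest peaks (20.8 tags and more) it was 1.64 at 731 sites without NCOR1 and 1.57 at 3364 with it.

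**Figure D2:**
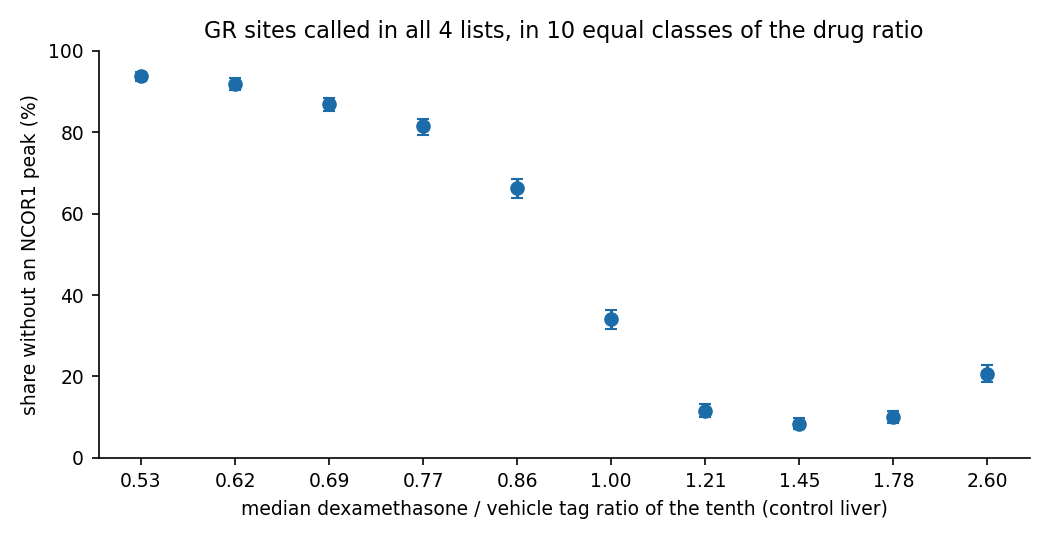
Share of GR sites without an NCOR1 peak (y axis, %, with 95% Clopper-Pearson intervals) among the 16144 sites called in all 4 GR lists, in 10 equal classes of the control dexamethasone to vehicle tag ratio (x axis, median of each class). The share goes from 93.8% to 8.36% and is 20.6% in the class with the highest ratios.

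The sites without NCOR1 also differed little between genotypes under vehicle. The median ratio of control to dKO tags was 1.01 under vehicle and 1.18 under dexamethasone, against 1.48 and 1.56 at sites with hepatocyte NCOR1. Under vehicle 397 sites (4.87%) were at least 1.5-fold higher in control liver, beside 23.3% of 17869 shared peaks, and 200 (2.46%) were lower, beside 1.70%. Under dexamethasone 1340 (16.5%, 15.7 to 17.3%) were higher in control liver, beside 36.5% of 24720 shared peaks, and 83 (1.02%) were lower, beside 1.46%. At sites with hepatocyte NCOR1 the shares higher in control liver were 48.8% under vehicle and 55.3% under dexamethasone. Within the class without NCOR1 the 537 sites with more tags under dexamethasone had median control to dKO ratios of 1.22 under vehicle and 1.52 under dexamethasone, and the 3240 with fewer had 1.09 and 1.05. The share of tags in peaks was lower in both dKO lists than in the control lists, as given above; its part in these ratios was not tested.

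Of the 12 sites with the highest control dexamethasone tag counts, 10 held more tags under dexamethasone in both genotypes, and some lie at textbook GR targets. That tag count is the numerator of the drug ratio, so the ranking favours such sites: of the 12 with the highest control vehicle tag counts, 0 did so and all 12 held fewer in both genotypes. The highest dexamethasone tag count was at Tat, the tyrosine aminotransferase gene long used to study glucocorticoid induction in liver. That site (chr8:109987864-109988064, inside the gene) held 140.0 tags under vehicle and 291.9 under dexamethasone in control liver, and 45.0 and 182.7 in dKO liver. Both drug ratios lay above 1 by their counting intervals, 2.08 (1.85 to 2.36) in control and 4.06 (3.37 to 4.92) in dKO, and both dKO lists were below the control lists. The second, 8.13 kb outside Mapk13, a stress-activated kinase gene, held 159.3, 274.4, 90.4 and 176.8 tags in the same order. Tat had 3 GR sites in all 4 lists, and the other 2 carried hepatocyte NCOR1.

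Fkbp5, which encodes a chaperone that holds GR in a low-affinity state, had 13 GR peaks, 6 of them in all 4 lists and 3 of those without NCOR1. The strongest of the 3 (chr17:28442317-28442517) held 96.1 tags under vehicle and 140.5 under dexamethasone in control liver, and 32.6 and 77.9 in dKO liver. The control ratio was 1.46 (1.25 to 1.71). The other 2 Fkbp5 sites, chosen after their values were seen, had control ratios of 0.820 (0.595 to 1.14) and 0.789 (0.536 to 1.17), whose intervals held 1. In dKO liver the 3 ratios were 2.39 (1.89 to 3.03), 0.594 (0.422 to 0.829) and 0.569 (0.380 to 0.837), the first above 1 and the others below it by counting error.

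Per1, a period gene of the circadian clock that glucocorticoids induce directly, had nearly equal tag counts in both genotypes. Its site (chr11:69099319-69099519) held 143.6 tags under vehicle and 183.7 under dexamethasone in control liver, and 132.3 and 176.4 in dKO liver. The ratio of control to dKO under dexamethasone was 1.04 (0.925 to 1.17), against 1.60 at Tat and 1.80 at Fkbp5.

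Among the other named sites were several with larger drug ratios. At Zbtb16, a zinc finger repressor induced by glucocorticoids, the strongest site held 25.3 tags under vehicle and 106.1 under dexamethasone in control liver, and 16.2 and 39.8 in dKO liver. At Klf15, a fasting-induced regulator of amino acid breakdown and gluconeogenesis, the values were 33.5, 95.6, 25.4 and 58.9. A site 73.5 kb outside Irs2, the insulin receptor substrate of liver, held 15.1, 99.1, 15.6 and 59.5. The other Zbtb16 sites without NCOR1 had control ratios of 0.699, 0.65 and 1.09 and dKO ratios of 0.614, 0.454 and 0.631. The other Irs2 site had 0.655 and 0.555, and the other Klf15 site 1.43 and 1.26. These other sites were chosen after their values were seen. The ratio was highest at Rab31, a vesicle transport GTPase gene, with 5.46 tags under vehicle and 44.5 under dexamethasone in control liver and 5.62 and 31.7 in dKO liver. In dKO liver the highest ratio was 13.2 (8.62 to 22.6), 22.8 kb outside Stt3b, where vehicle gave 6.58 tags and dexamethasone 87.1. At Sesn1, a stress-induced regulator of nutrient signalling, the 4 values were 48.6, 158.5, 23.9 and 129.0. At the strongest Zbtb16 site and the sites with tag counts given at Klf15, Irs2, Rab31, Stt3b and Sesn1, both dexamethasone lists were above both vehicle lists.

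A second set of strong sites held fewer tags under dexamethasone in both genotypes. The site with the most vehicle tags lay 54.4 kb outside Lrriq1 (chr10:103290713-103290913), with 256.5 tags under vehicle and 177.2 under dexamethasone in control liver, and 243.7 and 164.8 in dKO liver. Its drug ratios were 0.691 (0.616 to 0.774) and 0.676 (0.604 to 0.757). A site 31.4 kb outside Pou4f3, a transcription factor gene of sensory neurons, held 232.4, 160.3, 233.4 and 130.1. One inside Plcg2, a phospholipase gene of B cells and other leukocytes, held 240.1, 139.2, 212.2 and 124.9 and was chosen after its values were seen. One inside Reln, a gene of neurons and of hepatic stellate cells, held 78.1, 51.5, 80.9 and 43.2. At these 4 sites both vehicle lists were above both dexamethasone lists. Their control to dKO ratios under dexamethasone were 1.08 (0.951 to 1.21) at Lrriq1, 1.23 (1.08 to 1.41) at Pou4f3, 1.11 (0.968 to 1.28) at Plcg2 and 1.19 (0.943 to 1.51) at Reln. At Fam189a1, a site of the same kind with 210.6, 139.7, 201.5 and 106.4 tags, also chosen after its values were seen, it was 1.31 (1.13 to 1.52).

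The 8 sites with the lowest control ratios, from 0.278 to 0.339, held 15.8 to 25.1 tags under vehicle and 5.33 to 7.16 under dexamethasone. They included sites in or near Pebp4, Ecrg4, Chst4, Ldlrad3, Mrps6 and Nup210, and 1 had no gene within 100 kb. At Pebp4, the lowest, 69 tags were counted under vehicle and 21 under dexamethasone, a ratio of 0.278 (0.162 to 0.459), and in dKO liver the ratio was 0.560 (0.358 to 0.872). At Chst4, a sulfotransferase gene, the ratios were 0.330 and 0.428. All 8 were below 1 in dKO liver too, at 0.384 to 0.579, as were 90.7% of all 8145 sites.

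**Figure D3:**
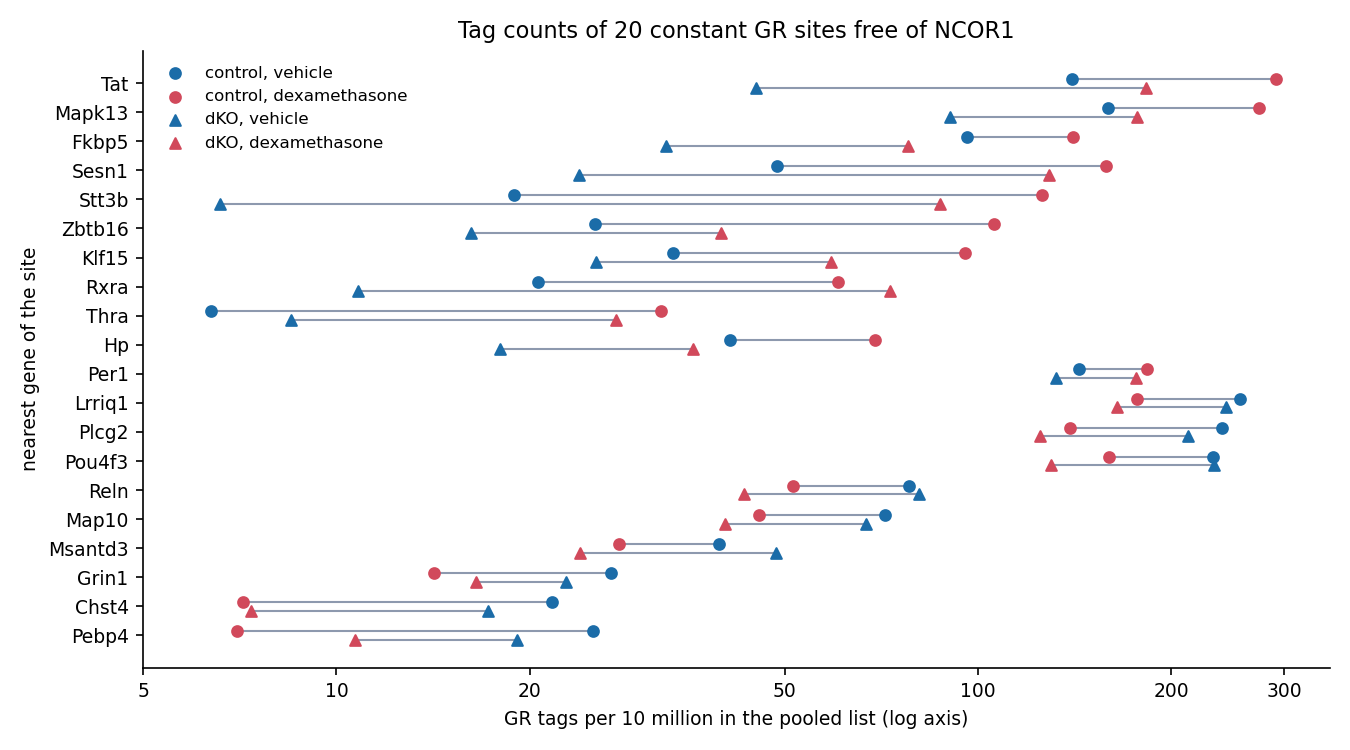
GR tags per 10 M (x axis, log scale) of 20 sites without NCOR1, named by their nearest gene (y axis), in control (circles) and dKO (triangles) liver under vehicle (blue) and dexamethasone (red); each point is 1 pooled list. Red lies to the right of blue for the upper 11 sites (Tat to Per1) and to the left for the lower 9 (Lrriq1 to Pebp4).

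By genotype under dexamethasone the extremes were single sites. The highest control to dKO ratio, 3.79 (2.40 to 6.26), was inside Kcnk10, a potassium channel gene, where control liver held 11.1 tags under vehicle and 28.5 under dexamethasone and dKO liver held 6.90 and 7.52. The lowest, 0.387 (0.297 to 0.498), lay 16.9 kb outside Slc25a30, a mitochondrial carrier gene, where the 4 values were 15.3, 28.0, 31.5 and 72.4. There both dKO lists exceeded the control list of the same treatment, the reverse of Tat.

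Position in the genome was not used by the rule. Of the sites without NCOR1, 4562 (56.0%, 54.9 to 57.1%) lay inside a protein-coding gene. This was near the 55.5% of all 40853 peaks, beside 53.4% (52.1 to 54.7%) with hepatocyte NCOR1. The sites without NCOR1 were more often far from genes: 16.1% (15.3 to 16.9%) had no protein-coding gene within 100 kb, beside 8.40% (7.70 to 9.15%) with hepatocyte NCOR1 and 10.6% of all 40853 peaks. Within 1000 bp of a gene's end or start lay 14.0% (13.2 to 14.7%) of them. That share was 9.03% (8.30 to 9.80%) with hepatocyte NCOR1, 12.4% of all peaks and 19.9% of the 2250 sites with a knockout NCOR1 peak. On chromosome X lay 3.79% (3.39 to 4.23%) of the sites without NCOR1, 1.11% (0.858 to 1.42%) of those with hepatocyte NCOR1 and 2.14% of all peaks. In each of the 5 classes of tag count the share far from genes and the share on X were higher without NCOR1; the share near a gene end was not, at 9.25% beside 13.7% in the lowest class. The sites with more tags under dexamethasone differed from the rest of their class: 6.52% (4.58 to 8.95%) were near a gene end and 9.87% (7.48 to 12.7%) far from genes. These shares were 16.0% and 15.8% for sites between the limits, and 12.4% and 17.4% for those with fewer tags. In the strongest class of tag count, sites without NCOR1 had 13.8% and 9.99%. The second is close to 9.87%, and the part of tag count was not tested.

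The 6835 sites with a gene within 100 kb were spread over 4980 genes, of which 3712 had 1 site and 50 had 5 or more. Most genes with the most sites were long: Tenm3 (1297 kb) had 9, and Casz1 (151 kb), Rbms3 (1057 kb), Sox5 (954 kb) and Trpm3 (858 kb) had 8 each, followed by Asic2, Auts2, Lrp1b, Nrxn3 and Ntrk3 with 7. In all 4 GR lists Tenm3 had 17 sites, Sox5 15, Trpm3 13, Asic2 11 and Rbms3 9. The shares at Tenm3 and Sox5 were thus near the 50.5% over all genes. At Casz1 all 8 such sites were without NCOR1, as were all 7 at each of Auts2, Lrp1b, Nrxn3 and Ntrk3. Tenm3 encodes a synaptic teneurin, Nrxn3 a neurexin, Asic2 an acid-sensing channel and Ntrk3 a neurotrophin receptor, all known from neurons. The 9 Tenm3 sites held 12 to 25.7 tags in control vehicle and 8.49 to 16.8 in control dexamethasone, with ratios of 0.520 to 0.761. Casz1, Auts2 and Nrxn3 also held sites with more tags under dexamethasone, with ratios up to 3.07, 2.12 and 1.76.

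Genes grouped by function divided the GR sites called in all 4 lists unevenly. Over all genes 50.5% of such sites were without NCOR1. Near hepatocyte identity genes it was 3 of 53 (5.66%, 1.18 to 15.7%), near bile acid and cholesterol genes 1 of 38 (2.63%, 0.0666 to 13.8%) and near genes of fatty acid oxidation and ketogenesis 2 of 24 (8.33%, 1.03 to 27.0%). The 3 hepatocyte identity sites were at Nr5a2, an orphan receptor of bile acid and cholesterol metabolism (39.3, 55.3, 24.9 and 37.1 tags), Cebpa (14.9, 16.7, 15.6 and 20.1) and Foxa1 (15.3, 10.7, 12.4 and 10.7). Alb and Hnf4a had 5 and 3 GR sites in all 4 lists and none of these was without NCOR1.

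Near the gluconeogenesis list 14 of 61 sites (23.0%, 13.2 to 35.5%) were without NCOR1, with a median control ratio of 0.836, beside 0.711 over all 8145. Of these 14, 2 were at least 1.5-fold higher under dexamethasone (Tat and Klf15) and 5 were lower, beside 6.59% and 39.8% of all 8145 sites; with so few sites neither count is read as a departure from them. Ppargc1a, the coactivator gene that drives gluconeogenesis in fasting, held 5 of the 14 and is named here after its values were seen. Its 5 sites held 14.2 to 21.8 tags in control vehicle and 9.32 to 14.2 in control dexamethasone, with ratios of 0.450 to 0.796 in control and 0.547 to 0.697 in dKO liver. Pck1 and G6pc, the genes of the key gluconeogenic enzymes, had 2 GR sites each in all 4 lists, and all 4 carried hepatocyte NCOR1. A site 4.49 kb outside Gpt2, an alanine aminotransferase gene, held 73.0, 97.2, 38.2 and 79.4 tags.

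Near the GR target list 23 of 95 sites (24.2%, 16.0 to 34.1%) were without NCOR1, and 7 of the 23 were at least 1.5-fold higher and 5 lower in control liver, where 6.59% of all 8145 sites were higher and 39.8% lower. Besides the sites above, Tsc22d3, the glucocorticoid-induced leucine zipper gene, had 3 sites without NCOR1 and 5 with hepatocyte NCOR1. Its 3 sites, chosen after their values were seen, had control ratios of 1.64, 1.32 and 2.18. Errfi1, an inhibitor of epidermal growth factor receptor signalling, likewise had 3, also chosen after their values were seen, with ratios of 1.70, 3.66 and 1.21. Sites at Dusp1, a phosphatase gene, and Map3k6, a kinase gene, picked in the same way, had fewer tags under dexamethasone, with ratios of 0.601 and 0.473.

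Near the clock genes 12 of 46 sites (26.1%, 14.3 to 41.1%) were without NCOR1, 6 of them inside Rora, a nuclear receptor gene of the clock named for this count, where control ratios were 0.593 to 0.886. In the list of corepressor subunits and nuclear receptors 14 of 53 (26.4%, 15.3 to 40.3%) were. The site inside Rxra, the common partner of many nuclear receptors, held 20.6, 60.6, 10.8 and 73.0 tags, and that inside Thra, a thyroid hormone receptor gene, held 6.37, 32.0, 8.51 and 27.3. Nr3c1, the GR gene, had 5 GR sites in all 4 lists and 0 without NCOR1.

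The remaining metabolic lists were alike in share. In lipogenesis 9 of 42 sites (21.4%) were without NCOR1, with a median control ratio of 0.696. Of the 9, 3 were at least 1.5-fold higher in control liver and 4 lower, beside 6.59% and 39.8% of all 8145 sites. The strongest, at Acacb, an acetyl-CoA carboxylase gene, held 9.46, 22.8, 16.2 and 29.9 tags. The other Acacb sites, chosen after their values were seen, had control ratios of 1.53 and 0.644 and dKO ratios of 0.761 and 0.425. In amino acid catabolism and the urea cycle 7 of 31 (22.6%) were, among them Tat and a site inside Sds, the serine dehydratase gene, with 21.5, 19.1, 15.9 and 17.4. In the acute phase list 9 of 45 (20.0%) were, led by a site 0.735 kb outside Hp, the haptoglobin gene, with 41.1, 69.1, 18 and 35.9. Near ribosomal protein genes 2 of 7 were.

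Of the 3 lists of genes known from cells other than hepatocytes, the neuronal list had a share whose interval lay above the 50.5% of all genes, and the intervals of the other 2 held it. The intervals treat sites as independent, although several lie near the same gene, so the lists are not ranked by them. Near neuronal genes 11 of 12 sites (91.7%, 61.5 to 99.8%) were without NCOR1, near Kupffer cell and leukocyte markers 4 of 5 (80.0%, 28.4 to 99.5%), and near endothelial, stellate cell and cholangiocyte markers 10 of 23 (43.5%, 23.2 to 65.5%). All 11 neuronal sites had fewer tags under dexamethasone in both genotypes, beside 86.1% of all 8145, and 5 of the 11 were lower by at least 1.5-fold in control liver, beside 39.8%. They held 13.8 to 26.8 tags in control vehicle, 9.49 to 16.2 in control dexamethasone, 13.6 to 25.5 in dKO vehicle and 7.83 to 16.5 in dKO dexamethasone. They lay at Rbfox3 (4 sites), Gad1 and Gad2 (2 each), Grin1, Mbp and Syn1, genes of neurons and myelin. The 4 leukocyte marker sites, at Timd4, C1qa, Cd3e and Marco, held 13.5 to 17.1 tags in control vehicle and 10.8 to 12.3 in control dexamethasone. Of these 4, 1 (Marco, 0.651, counting interval 0.392 to 1.02) was lower by at least 1.5-fold in control liver, and the control intervals of all 4 held 1. C1qc, whose promoter site is printed above, is not in the list. Its site went from 12.2 to 48.0 tags in control liver and from 5.30 to 26.5 in dKO liver. The listed genes number 16 in each of the first 2 lists and 18 in the last, so single genes carry much of each share. Binding near a marker gene does not show which cells held the site, and which cells did was not tested.

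**Figure D4:**
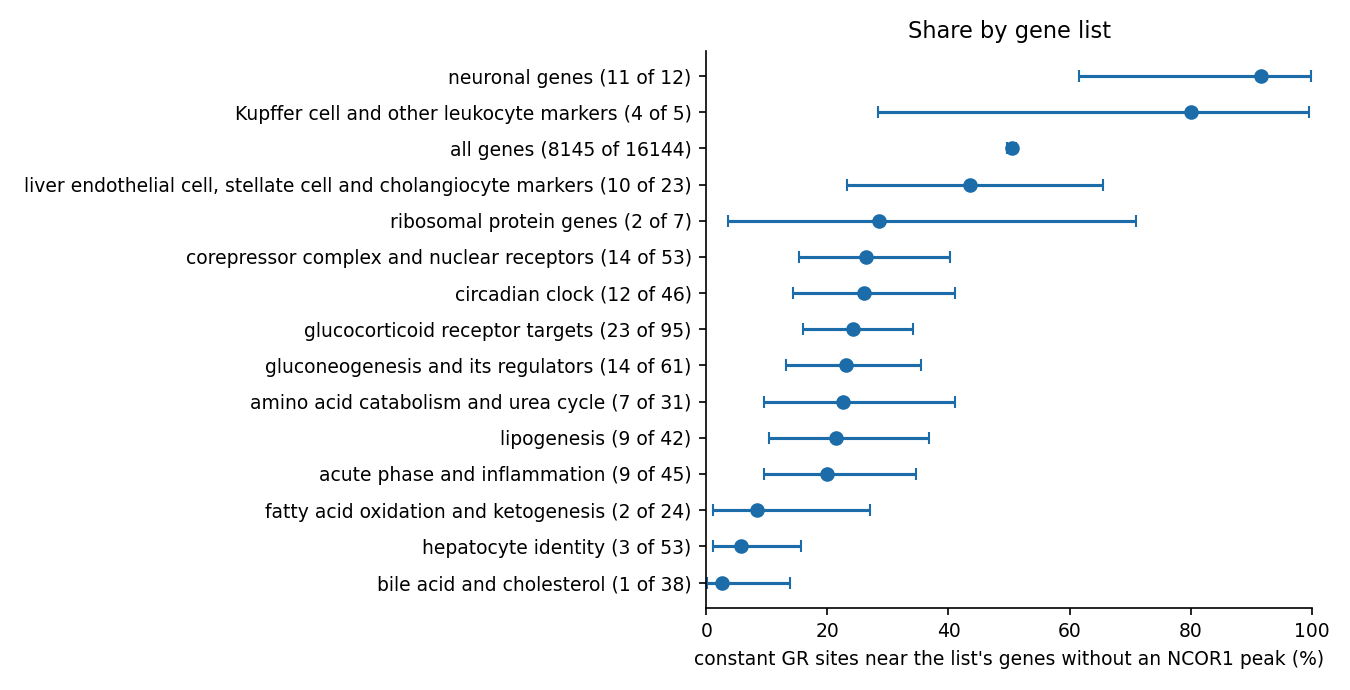
Share of GR sites called in all 4 lists that had no NCOR1 peak (x axis, %, with 95% Clopper-Pearson intervals), for sites whose nearest protein-coding gene within 100 kb belongs to each of 14 gene lists and for all sites (y axis, with counts). Hepatocyte identity and bile acid genes are at 5.66% and 2.63%, all sites at 50.5% and neuronal genes at 91.7%.

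The centres of 256 sites without NCOR1 fell in a RefSeq promoter window, 3.25% of the 7873 on chromosomes with windows, beside 230 (4.14%) with hepatocyte NCOR1. The share was 4.58% over all control dexamethasone peaks, 3.70% at dexamethasone-only peaks and 10.8% with a knockout NCOR1 peak. The windows of sites without NCOR1 were rich in G and C, with a median of 70.7% (quartiles 62.7 and 76.7%), beside 52.5% (46.7 and 62.0%) with hepatocyte NCOR1, 60.7% with a knockout NCOR1 peak, 58.3% at dexamethasone-only peaks and 52.7% over all 32817 windows. The median number of CG dinucleotides was 33.0, beside 6.50 and, over all windows, 7.0. By drug ratio, the 227 windows of sites with more tags under vehicle had a median GC of 72.3%, and the 27 with more tags under dexamethasone had 58.0%. Msantd3 and C1qc, printed above, are examples of either kind.

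**Figure D5:**
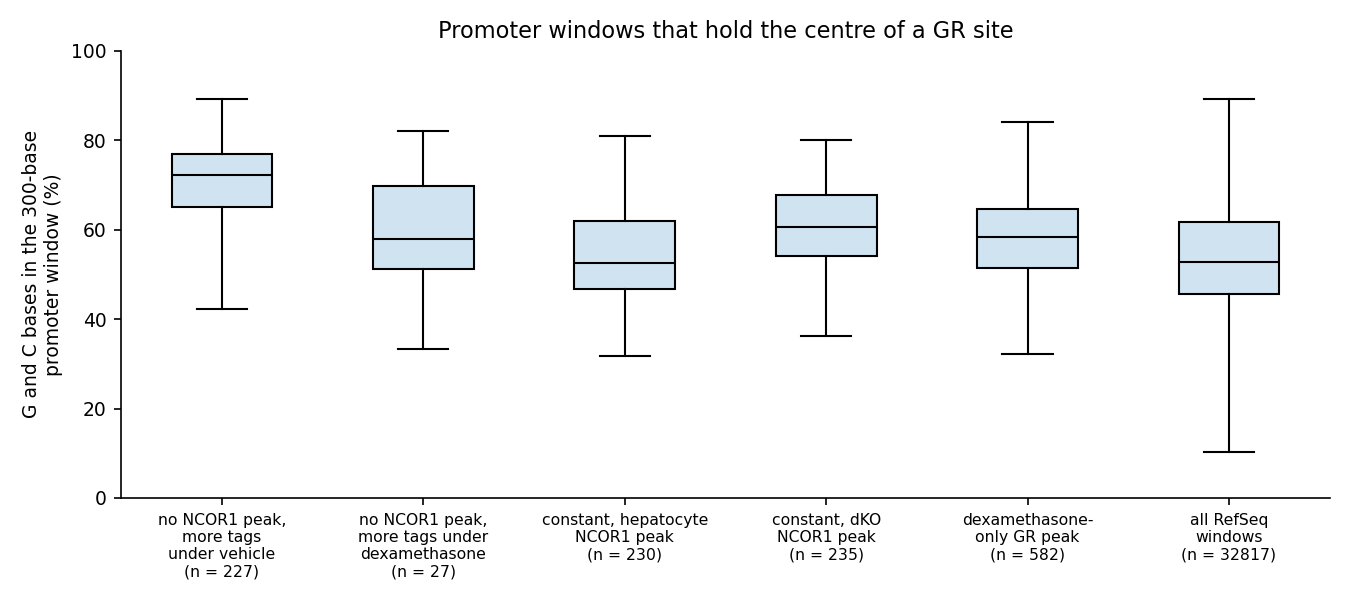
G and C content (y axis, %) of the 300-base RefSeq promoter windows that hold the centre of a GR site, by class (x axis, with the number of windows); boxes give the quartiles and the median, and whiskers the lowest and highest window. The median is 72.3% for sites without NCOR1 and with more tags under vehicle, 58.0% for those with more tags under dexamethasone and 52.7% for all windows.

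The same windows were searched on both strands for 8 sequence patterns. GGGCGG, which Sp1-family factors bind, was in 200 of 256 windows of sites without NCOR1 (78.1%, 72.6 to 83.0%), in 32.6% (26.6 to 39.1%) with hepatocyte NCOR1 and in 35.6% of all windows. The GR hexamer AGAACA was in 16 (6.25%, 3.61 to 9.95%), beside 28.3% (22.5 to 34.6%) and 19.0%. The GR palindrome, AGAACA and TGTTCT set 3 bases apart, was found exactly in 0 windows, which allows a share of up to 1.43% by the interval. It is rare throughout, at 0.87% with hepatocyte NCOR1 and 0.00914% of all windows. With up to 2 mismatches in its 12 fixed bases the palindrome was in 2 (0.781%, 0.0948 to 2.79%), beside 8.26% (5.05 to 12.6%) and 1.84%. The first interval holds the 1.84% of all windows. Windows with a palindrome hold a hexamer too where 1 side is intact. The FOXA sequence, TGTTTAC or TGTTTGC, was in 2.34% (0.865 to 5.03%), beside 16.5% (12 to 22%) and 8.47%. The HNF4A sequence CAAAGTCCA with 1 mismatch was in 2.73%, beside 20.0% and 8.48%. The CEBP sequence, TTGC and CAAT set 2 bases apart, with 1 mismatch was in 8.20%, beside 14.8% and 12.7%. The STAT sequence, TTC and GAA set 3 bases apart, was in 3.52%, beside 5.65% and 8.29%, and CCAAT in 23.4%, beside 37.8% and 37.4%. In windows of sites with a knockout NCOR1 peak, GGGCGG was in 58.3% (51.7 to 64.7%) and AGAACA in 16.2%. At dexamethasone-only peaks they were in 49.1% (45.0 to 53.3%) and 21.8%. GC-rich sequence holds A- and T-rich patterns less often, and the part of base composition in these shares was not tested. In the 27 windows with more tags under dexamethasone the hexamer was in 5 (18.5%, 6.30 to 38.1%) and GGGCGG in 13 (48.1%, 28.7 to 68.1%). Sites outside promoter windows, most of the 8145, were not searched, since no genome sequence was at hand.

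The median gap from a site without NCOR1 to the nearest NCOR1 peak of any list was 17.7 kb, and 409 sites (5.02%) had one within 200 bp. By drug ratio the median gap was 3.12 kb for the 537 sites with more tags under dexamethasone, 16.8 kb for those between and 24.3 kb for those with fewer. Just inside the rule, the sites at Nr5a2, Phf21b and Tmem241 abutted an NCOR1 peak with a gap of 0 bp and held 55.3, 13.3 and 106.6 control dexamethasone tags. Just outside it, the sites at Cradd, Arl4d and Zfp369 overlapped one by 1 bp and held 101.7, 38.5 and 13.2. Of the 7999 GR sites called in all 4 lists that did overlap NCOR1, 156 (1.95%) did so by less than 50 bp. A site without a called NCOR1 peak is not shown to lack NCOR1, and the control vehicle NCOR1 list rests on 1 library.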

How the data were processed

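ChIP-seq of GR and NCOR1 in mouse liver was deposited as 7 peak lists, each called on the pooled libraries of 1 group. The submitters' processing notes name HOMER 4.11, BWA 0.7.17, bedtools 2.29.2, Trim Galore 0.6.4 and the mm10 build. Per the file headers, the authors called 200-bp peaks against input with findPeaks, at 4-fold over input and over the local 10 kb, with a Poisson p-value limit of 0.0001. The deposited tag count is a signal per 10 M tags; the fold over input and over local background are ratios by the authors. Overlaps, classes, intervals and ratios were computed here with Python 3.11.15, pandas 2.3.3, numpy 2.4.6 and SciPy 1.17.1, and the overlap code was checked on planted lists and against bedtools. The nearest gene is the nearest RefSeq protein-coding body (GRCm38.p6, 21883 genes) within 100 kb. All 275 symbols of the 14 gene lists matched that table. Coordinates are as deposited; for sequence, a site was read as the 200 bases after its start position, since the headers do not say whether starts count from 0 or 1. Promoter windows of chromosome 18 were not used here. The sites and gene lists were chosen with earlier results of these data known. Sites named are those highest or lowest in tags or ratios, the strongest per list gene, the genes with most sites, the strongest promoter sites and those next to the overlap limit; others are said to be chosen after their values were seen. Alternatives were other overlap, fold, distance, list and scaling choices.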

Additional observations from a re-analysis of the deposited data

Results flagged for a closer look

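A pair of sites without NCOR1 moved in opposite directions by genotype, at least 1.5-fold higher under dexamethasone in control liver and at least 1.5-fold lower in dKO liver. The site inside Me1, the malic enzyme gene, held 10.6 tags under vehicle and 18.6 under dexamethasone in control liver, and 13.0 and 8.46 in dKO liver. Its drug ratio was 1.75 (counting interval 1.11 to 2.87) in control and 0.651 (0.389 to 1.10) in dKO liver. The site inside Zcchc18, on chromosome X, held 9.46, 14.3, 12.4 and 7.52 tags, with ratios of 1.51 (0.909 to 2.56) and 0.606 (0.346 to 1.02). Each group is 1 pooled list, so the difference between genotypes was not tested. Of the 4 intervals, 3 hold 1.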

How the results depend on the processing

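No paired analysis was possible because the libraries were pooled before peaks were called, so no list carries a replicate number; leaving out a replicate was not possible for the same reason. Of 7 changes to the rule, 6 gave 6007 to 8460 sites, and limiting each GR list to its 23362 strongest peaks gave 5320. The share at least 1.5-fold higher under dexamethasone (6.59%) was 7.30% with an overlap of 100 bp, 2.98% at 8-fold over local background, 7.35% with only the control NCOR1 lists, 5.49% with no NCOR1 within 500 bp and 7.61% in the limited lists. The share lower (39.8%) was 43.0% at 8-fold over local background, 41.4% with no NCOR1 within 500 bp, 30.6% in the limited lists and 47.5% after division by the median ratio of all shared peaks (1.05). Among sites of at least 20 tags in either control list, the shares were 14.3% higher and 49.3% lower. That alternative was chosen after seeing the data, like all those of the share lower. A site could pass the cut through the treatment where it was high, which favours large ratios in both directions. The share higher in control than in dKO liver under dexamethasone (16.5%) was 13.7% at 8-fold over local background and 19.5% in the limited lists. The share near a gene end (14.0%) was 15% with 100 bp, 10.5% at 8-fold over local background, 10.6% with no NCOR1 within 500 bp and 15.9% in the limited lists, and the share inside genes (56.0%) was 54.9% at 8-fold over input, 51.0% at 8-fold over local background and 54.1% with no NCOR1 within 500 bp. In every setting run, the share lower under dexamethasone exceeded the share higher. Genes within 10 kb in place of 100 kb left 84 of 116 sites near listed genes, 13 of 23 for GR targets and 0 of 2 for fatty acid oxidation. With the medians at 34 to 54 tags as counted, a 1.5-fold ratio at a single typical site is near the limit of counting error.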
